A study of Mus musculus with 4 samples.

Results

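Accessible regions of 2000 bp or more at the end of a gene, merged over libraries and called in each of them, numbered 204 in an ATAC-seq series on myeloid-derived suppressor cells (MDSCs). ATAC-seq marks open DNA by the adapters that the Tn5 transposase inserts there, and MDSCs are immature myeloid cells that restrain T cells in tumour-bearing hosts. Peaks on the 19 autosomes were merged wherever they shared at least 1 bp. A merged region was kept when each of the 4 libraries had a peak in it, its merged width was at least 2000 bp, and the mean of its peak summits lay within 1 kb of either end of a protein-coding gene. These 204 broad regions came from 45299 merged regions on all chromosomes, of which 44742 were autosomal and 16657 were autosomal and called in all 4 libraries (shared). The rule used the presence, width and position of peaks, so none of these is a finding, and fold enrichment, q-values and pileup come from the same peak calls and are given as a description.

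Ascitic fluid was taken 14 days after mice had been given EL4, a lymphoma line of mouse T cells, and its Gr1+CD11b+ cells were sorted. WT mice gave 2 libraries and Sphk2 KO mice, which lack sphingosine kinase 2, gave another 2, and both groups carried the tumour. The labels call the libraries biological replicates; strain, age and the knockout allele are not given in the sources used here, nor is whether animals were pooled, so p-values measure only the spread between these libraries. Each library was made from 20000 cells with 40% of the recommended Tn5, and the fragments kept for peak calling numbered 33859480 and 34443062 for WT versus 25877428 and 27686223 for Sphk2 KO, replicate 1 before replicate 2 here and throughout. Fragment size was 156 and 177 bp for WT versus 179 and 193 bp for Sphk2 KO. Of the genes behind the sorting markers, Itgam (CD11b) had a shared region of 1499 bp at an end, and Ly6g, Ly6c1 and Ly6c2 (Gr1) had none. The region at Sphk2 was called in all 4 libraries, so these peaks do not check the knockout label. Of 20 T cell markers Cd3d and Cd5 had a shared region at an end, and of 10 B cell and 8 NK cell markers none did; the part of other cells in the results was not tested.

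Most accessible promoters are a short nucleosome-free gap over the transcription start. Some genes hold a much wider open stretch, over CpG islands, alternative starts or control elements next to the start, and genes that are switched on quickly by signals and genes of cell identity are known for it. In myeloid cells such genes include immediate early genes, NF-kB inhibitors and receptors for bacterial products.

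The broad regions lay at gene starts, and their promoters ran from rich to poor in CpG. Strand was known for the nearest gene of 170 regions through the RefSeq promoter table, and for 165 of them the nearer end was the start. The 5 at the far end lay at Il1b, Il1r2, Ifitm2, Hes7 and the predicted gene Gm20783. Shared gene-end regions under 2000 bp were alike, with the start nearer in 5762 and the far end in 220. An annotated start of a protein-coding gene lay inside 166 broad regions. Its promoter (250 bases before to 50 after the start, RefSeq, GRCm38.p6, the assembly that mm10 names) was read. The following are examples, of which Klf13 is the richest in CpG and Fcgr4 the poorest; capitals mark matches to any of the motifs spelled out further down. Nfkbie (chr17:45555450-45555749, plus strand), Rnf31 (chr14:55591492-55591791, plus strand) and Klf13 (chr7:63938866-63939165, minus strand) were chosen by rank or width. Fcgr4 (chr1:171018676-171018975, plus strand) was chosen after its values were seen.
Klf13: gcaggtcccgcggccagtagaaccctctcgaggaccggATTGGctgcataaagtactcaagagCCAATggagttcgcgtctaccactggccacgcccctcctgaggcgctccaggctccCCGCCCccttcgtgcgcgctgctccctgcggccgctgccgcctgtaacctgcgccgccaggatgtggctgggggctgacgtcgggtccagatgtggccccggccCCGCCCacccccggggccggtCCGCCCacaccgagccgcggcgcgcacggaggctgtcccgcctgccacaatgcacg
Rnf31: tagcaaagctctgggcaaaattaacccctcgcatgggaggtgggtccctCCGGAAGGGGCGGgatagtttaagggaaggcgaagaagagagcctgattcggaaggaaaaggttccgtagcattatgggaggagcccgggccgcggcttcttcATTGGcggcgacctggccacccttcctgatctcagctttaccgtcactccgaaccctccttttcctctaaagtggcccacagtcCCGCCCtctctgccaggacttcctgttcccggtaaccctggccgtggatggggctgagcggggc
Nfkbie: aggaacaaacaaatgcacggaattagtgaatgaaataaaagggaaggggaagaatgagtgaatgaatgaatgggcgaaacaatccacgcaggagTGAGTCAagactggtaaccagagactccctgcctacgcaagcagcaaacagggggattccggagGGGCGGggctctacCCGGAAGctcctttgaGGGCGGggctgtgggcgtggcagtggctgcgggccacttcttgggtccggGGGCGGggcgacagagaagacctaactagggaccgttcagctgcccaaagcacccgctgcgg
Fcgr4: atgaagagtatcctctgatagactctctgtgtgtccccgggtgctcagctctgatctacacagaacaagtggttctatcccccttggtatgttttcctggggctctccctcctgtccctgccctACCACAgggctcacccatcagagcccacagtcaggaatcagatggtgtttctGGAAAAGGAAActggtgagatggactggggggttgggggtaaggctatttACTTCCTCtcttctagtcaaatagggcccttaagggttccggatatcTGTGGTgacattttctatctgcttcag
Klf13, a Krüppel-like transcription factor gene, had 32 CpG in these 300 bases, a GC content of 72% and 3 GC boxes. Rnf31, which encodes the catalytic subunit of the linear ubiquitin ligase, had 17 CpG and Nfkbie, an NF-kB inhibitor gene, 16. Fcgr4, an activating receptor for IgG, had 2 CpG, and its letters matched the PU.1, Runx and interferon response motifs.

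Over the 166 promoters the median was 8 CpG per 100 bases with quartiles of 5 and 12.3, against 7.67 with quartiles of 5.67 and 10 in 5614 promoters inside shared gene-end regions under 2000 bp, and 4.33 over 21262 promoters of protein-coding genes in the table. Median GC content was 64%, 62% and 56.3% in the same order. Broad regions thus had a similar median and a wider spread of CpG than narrower gene-end regions.

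Motifs were searched on both strands of the same 300 bases. The GC box GGGCGG of Sp and Krüppel-like factors was found in 73.5% of the 166 promoters, in 71.6% of those of narrower gene-end regions and in 46.2% of all promoters. The ETS letters CCGGAAG were found in 15.7%, 22.9% and 11.6%, and the CCAAT box (CCAAT) in 33.1%, 40.7% and 38.2%. The PU.1 letters GAGGAAGT were found in 6.02%, 3.47% and 3.13%, and the TATA letters TATAAA in 12%, 5.66% and 12.6%. The interferon response letters, GGAAA and GAAA with any 2 bases between, were found in 7 promoters or 4.22%, against 1.26% and 1.17%, and the 7 belonged to Fcgr4, Ifitm2, Pilrb1, Pilrb2, Gna13, Slc37a1 and Fbxl15. These 7 were picked out after their values were seen. The promoters of Pilrb1 and Pilrb2 are near-identical copies with this match at the same place, so they are not independent of each other. The remaining motifs were AP-1 (TGANTCA) at 6.63%, 4.08% and 6.99%, CRE (TGACGTCA) at 3.01%, 4.26% and 2.23%, the E-box (CACGTG) at 10.2%, 11.6% and 7.84%, C/EBP (TTGCNNAA) at 9.04%, 7.34% and 10.2%, Runx (ACCACA) at 9.64%, 12% and 15%, and NF-kB (GGGANTTCC, or the same with 1 more T) at 4.22%, 3.15% and 2.25%. The ETS and PU.1 letters share GGAAG. A match is a match of letters only and shows no bound factor.

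Openness spread to both sides of the start. In the 166 regions a median of 1033 bp lay upstream of the start and 1267.5 bp downstream, against 443.5 and 556 bp in the 5614 narrower regions. These stretches make up the merged width by which the sets were split, so longer ones in broad regions follow from the rule. The bases downstream outnumbered those upstream in 95 of 166 broad regions (57.2%) and in 63.3% of the narrower ones. At 1000 bp upstream of the start, 41.6%, 48.2%, 41% and 44.6% of the broad regions were under a peak in the WT and then the Sphk2 KO libraries, and at 1000 bp downstream 50%, 56%, 45.2% and 57.8%. Sphk2 KO replicate 1, the library with the fewest fragments, was the lowest on both sides.

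**Figure D1:**
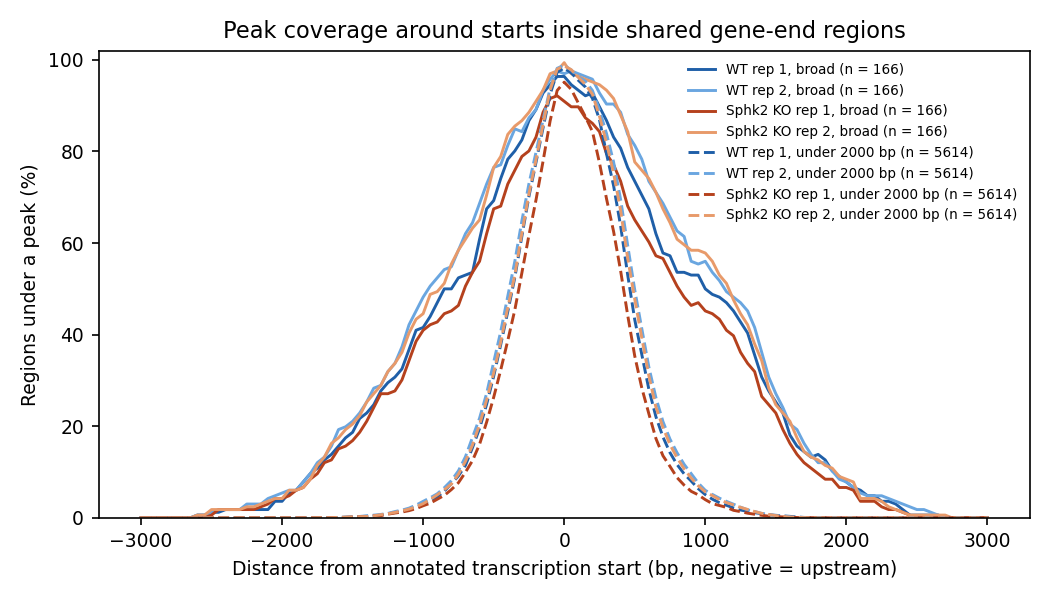
Share of shared gene-end regions under a peak (y axis, %) by distance from the annotated start inside them (x axis, bp), 1 line per library, solid for the 166 broad regions and dashed for 5614 regions under 2000 bp. At 500 bp downstream 65.1% to 81.3% of the broad regions were covered, against 35.3% to 49.8% of the narrower ones. The sets were split by merged width, so a gap in this direction follows from the rule.

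Summits lay farther from the gene end and from each other in broad regions than in narrower ones. Broad regions were chosen for their width, which leaves more room for this, so these values are a description. The mean summit lay a median of 277 bp from the gene end, against 76.5 bp for the 7311 narrower gene-end regions. The strongest summits of the 4 libraries lay within 100 bp of each other in 116 of 204 broad regions (56.9%) and in 74.4% of the narrower regions. A second protein-coding gene had an end within 1 kb of the summit in 36 broad regions (17.6%) and in 18% of the narrower ones, so divergent or crowded gene pairs were about as frequent in both. The most crowded were the regions at Fbxl15, Psd and Cuedc2 and at Mrps34, Nme3 and Eme2, with ends of 3 genes each. A long non-coding RNA gene had an end within 1 kb of the summit in 32 broad regions (15.7%) and in 11.4% of the narrower ones. The 1 miRNA gene with an end within 1 kb of a broad region's summit was that of miR-5100, in the region at Mief2 and Flii (chr11:60728698-60728718, plus strand, RefSeq, GRCm38.p6), whose mature sequence follows with its seed in capitals.
mmu-miR-5100: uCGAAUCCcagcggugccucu

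Few broad regions had a single wide peak in every library. In 31 of the 204 regions every library had a single peak of at least 2000 bp, in 30 regions 3 libraries had, in 48 regions 2, in 57 regions 1 and in 38 regions none. A region was covered by exactly 1 peak in every library in 95 cases (46.6%), compared with 95.7% of the narrower gene-end regions. The regions were split into 2 or more peaks in 67 and 42 cases in WT versus 68 and 24 cases in Sphk2 KO. Merged widths ran from 2000 to 3651 bp with a median of 2213.5 bp and an upper quartile of 2423.5 bp, so few regions were far above the threshold. Just inside it were Prkcd (2000 bp), Ftl1 (2001 bp) and Aprt (2008 bp), and just outside it Gm31513 (1999 bp), Dyrk3 (1998 bp) and Rac2 (1997 bp).

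The widest region spanned Ier2, an immediate early gene for a nuclear protein, on chromosome 8 from 84661515 to 84665165 (mm10), 3651 bp. Peaks covered 3088 and 3265 bp of it in WT versus 3320 and 3651 bp in Sphk2 KO. The Sphk2 KO values lay above the WT values.

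At Xylt1, whose enzyme starts the sugar chains of proteoglycans, peaks covered 2615 and 3332 bp in WT versus 1688 and 3499 bp in Sphk2 KO of 3531 bp. The genotypes overlapped, and WT replicate 1 reached its value with 4 separate peaks. At Thbd, the gene for the anticoagulant receptor thrombomodulin, peaks covered 1635 and 2888 bp in WT versus 1432 and 3078 bp in Sphk2 KO of 3129 bp. Replicate 1 of each genotype was the lower there. Rchy1, a ubiquitin ligase gene, had 3205 and 2454 bp in WT versus 2477 and 2867 bp in Sphk2 KO of 3238 bp, with a single peak in every library.

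Immune genes among the widest regions were Nfkbie, Fcgr4, Acod1, Adgre5 and Cd53. Nfkbie, on chromosome 17 from 45554715 to 45557767, had 2411 and 2398 bp under peaks in WT versus 1359 and 2805 bp in Sphk2 KO. Fcgr4, on chromosome 1 from 171016800 to 171019831, had 1861 and 2508 bp in WT versus 1433 and 2653 bp in Sphk2 KO, in 2 peaks in every library. At both genes Sphk2 KO replicate 1 was the lowest and Sphk2 KO replicate 2 the highest. Acod1, whose enzyme makes itaconate in activated myeloid cells, had 2262 and 3026 bp in WT versus 2215 and 2188 bp in Sphk2 KO, with the WT values above those of Sphk2 KO. Adgre5, an adhesion receptor of leukocytes, had 2584 and 2330 bp in WT versus 2896 and 3016 bp in Sphk2 KO, with the Sphk2 KO values above those of WT. Cd53, a tetraspanin of leukocytes, had 2518 and 2491 bp in WT versus 2565 and 2911 bp in Sphk2 KO, again with Sphk2 KO above WT. Resf1, which silences retroelements, had 1741 and 2175 bp in WT versus 2468 and 2924 bp in Sphk2 KO, the same order. Gm20783 had 2999 and 3042 bp in WT versus 2966 and 2923 bp in Sphk2 KO of 3042 bp, with WT above Sphk2 KO. The region at Tctex1d4 and Btbd19 (2930 bp) overlapped between the genotypes.

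**Figure D2:**
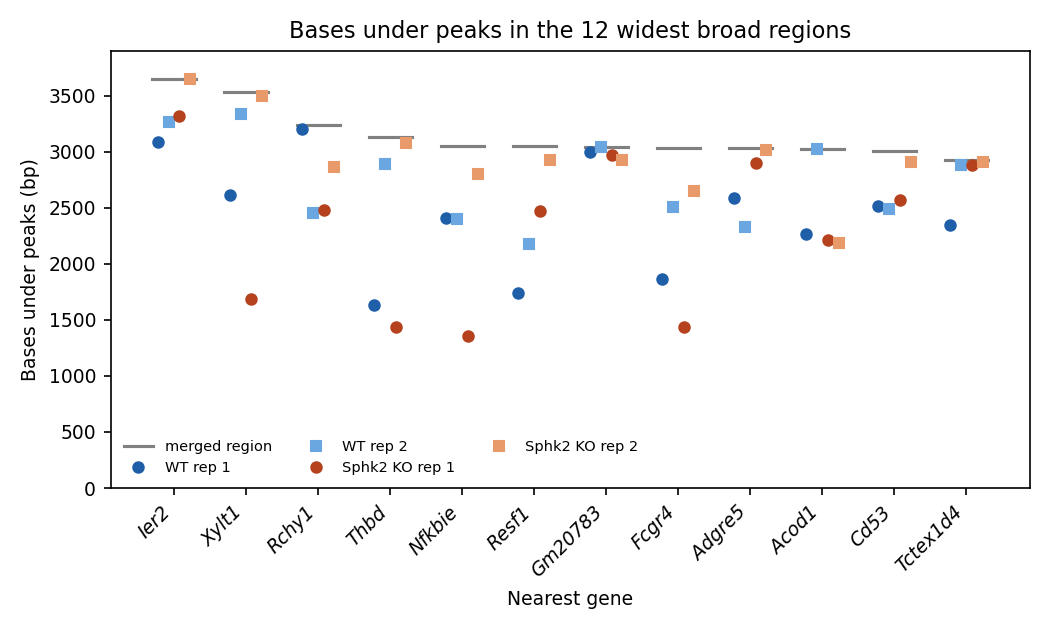
Bases under peaks (y axis, bp) in the 12 widest broad regions, named by the nearest gene, 1 point per library and a grey line at the merged width. Values within a region ran from 1359 to 2805 bp at Nfkbie and from 2923 to 3042 bp at Gm20783.

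Over all 204 regions, peaks covered a median of 1979.5 and 2074 bp in WT versus 1794 and 2051 bp in Sphk2 KO. The difference of the means was 104 bp, WT above Sphk2 KO, and the libraries of the genotypes overlapped (two-sided exact permutation test, n = 2 libraries each, p = 0.667, and 1 after Benjamini-Hochberg adjustment over the 3 exact tests made). With 2 libraries against 2 no p under 0.333 was possible. The rule used the merged width of these same peaks, which a single library could set. Covered width is therefore given as a description, and no conclusion is drawn from its p-value. Covered width was larger in both WT libraries than in both Sphk2 KO libraries at 38 of the 204 regions (18.6%), against 24.3% of all shared regions. It was larger in both Sphk2 KO libraries at 15 (7.35%), against 10% of all shared regions, so the order seen at Ier2, Adgre5, Cd53 and Resf1 was the less frequent of these orders. Sphk2 KO replicate 1 had both the fewest fragments and the smallest covered width. Fragment size was also larger in both Sphk2 KO libraries (179 and 193 bp) than in both WT libraries (156 and 177 bp). The median width of all peaks had the same order, 483 and 558 bp in WT versus 583 and 625 bp in Sphk2 KO. The shares of depth and fragment size in these widths were not tested and cannot be told apart from genotype here.

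The rank of broad regions differed between the authors' scores. Each library's shared regions were ranked by the highest score of their peaks, and ranks are given as a percent of the 16657 shared regions, 0 being best. By pileup height, the number of overlapping fragments at the summit, the median rank of the 204 regions was 25.3% and 23.5% in WT versus 24.3% and 25.1% in Sphk2 KO. The narrower gene-end regions stood at 35.6% and 36.5% in WT versus 37.6% and 37.1% in Sphk2 KO, so broad regions ranked better in every library. By the authors' −log10 q the broad regions stood at 33.2% and 33.4% in WT versus 31.9% and 33.5% in Sphk2 KO. The narrower gene-end regions had almost the same ranks by this score, 33.4% and 33.9% in WT versus 35.3% and 34.2% in Sphk2 KO.

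By fold enrichment the order was turned round. Broad regions ranked at 59.3% and 63% in WT versus 56.8% and 63.5% in Sphk2 KO, and narrower gene-end regions at 31.5% and 32.2% in WT versus 33% and 32.6% in Sphk2 KO. The authors' fold enrichment itself had a median of 7.12 and 6.67 in WT versus 6.32 and 7.08 in Sphk2 KO for broad regions, against 9.92, 9.38, 8.51 and 10.1 for narrower ones. Pileup divided by fold enrichment, which restates these scores, only approximates the local background at the strongest summit. Its median was 14.1 and 18.3 fragments in WT versus 11.3 and 19.5 in Sphk2 KO at broad regions, against 8.35, 10.4, 6.52 and 10.5 at narrower ones. Per the file headers that background was taken from 10 kb around, a window that holds the region's own fragments; how far this lowered fold enrichment was not tested. The 248 shared regions of 2000 bp or more away from gene ends also ranked low by fold enrichment, at 68.5% and 71.7% in WT versus 62.3% and 71.9% in Sphk2 KO. Their q ranks, unlike those of the broad gene-end regions, were also worse than those of the narrower gene-end regions, at 45.8% and 44.6% in WT versus 43.4% and 44.4% in Sphk2 KO. Their pileup ranks were 37.7% and 33.6% in WT versus 32.5% and 33.2% in Sphk2 KO, better than the narrower gene-end regions in 3 of the 4 libraries.

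Fold enrichment rank did not follow width in 1 direction. It was 74.7% to 81% over the 4 libraries in gene-end regions under 500 bp (n = 144) and 30.8% to 35.2% at 500 to 999 bp (n = 3246). Among gene-end regions of 1000 to 1499 bp (n = 3147) the median fold enrichment rank was 27.6% to 28.8% over the 4 libraries. It was 39.2% to 46.1% at 1500 to 1999 bp (n = 774) and 56.8% to 63.5% at 2000 bp or more. The q rank was 27.3% to 28.9%, 28.7% to 30.2% and 31.9% to 33.5% in the same classes, and the pileup rank 29.5% to 30.6%, 26.7% to 28.1% and 23.5% to 25.3%.

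**Figure D3:**
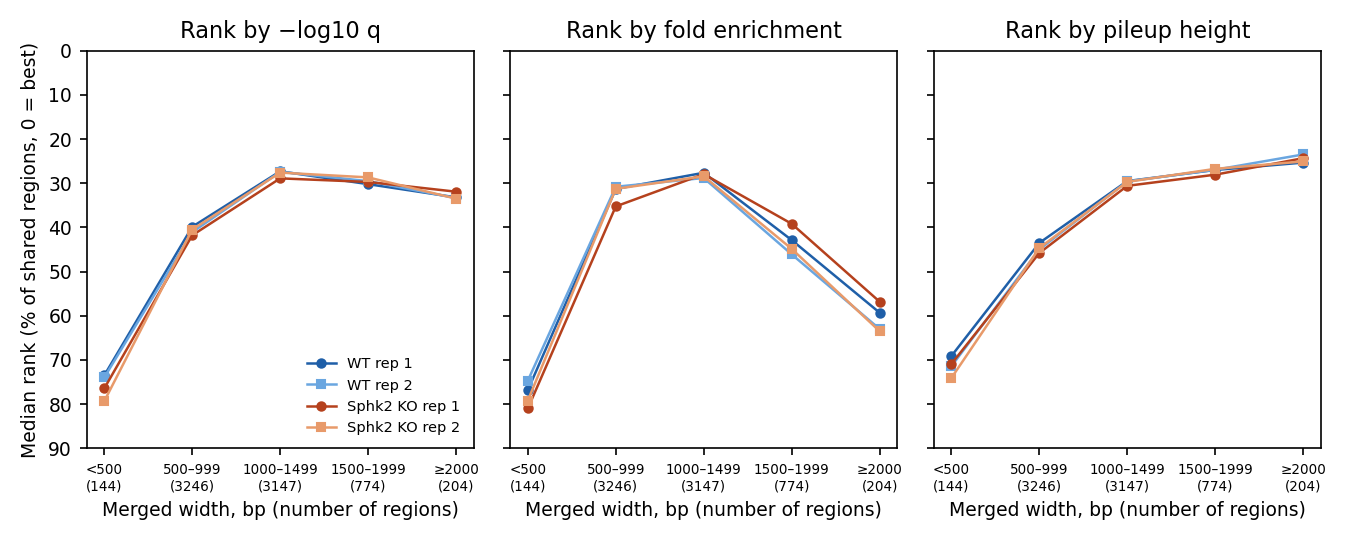
Median rank (y axis, % of shared regions, 0 best, axis reversed) by −log10 q, fold enrichment and pileup height for shared gene-end regions in 5 classes of merged width (x axis, bp, number of regions in brackets), 1 line per library. From the class of 1000 to 1499 bp to that of 2000 bp or more the fold enrichment rank worsened in every library while the pileup rank improved. A region took its highest peak score, and regions of 2000 bp or more held several peaks more often than narrower ones.

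When broad regions were ordered by the worst of their 4 q ranks, the first was the region at Rnf31 and Psme2, a proteasome activator gene, on chromosome 14 from 55590191 to 55592207. Its q ranks were 2.26% and 0.522% in WT versus 0.973% and 0.6% in Sphk2 KO. Klf13 followed with 2.73% and 2.20% in WT versus 3.67% and 3.41% in Sphk2 KO, and Mknk2, a kinase of the translation factor eIF4E, with 3.07% and 2.82% in WT versus 2.31% and 3.76% in Sphk2 KO. The next were Rtn4, a reticulon of the endoplasmic reticulum, U2af2, a splicing factor, Spag9, a scaffold of JNK signalling, Cap1, an actin regulator, and Atp6v0d1, a subunit of the proton pump of lysosomes.

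At the other end, H2-Q10, a gene for a secreted MHC class I protein, had q ranks of 97.6% and 99.2% in WT versus 97.1% and 95.9% in Sphk2 KO. Its region of 2597 bp was under peaks for 632 and 1161 bp in WT versus for 727 and 2596 bp in Sphk2 KO, so 1 library set its width. The other weak regions were at Mrps34, a mitochondrial ribosome gene, Trim16, the kinase gene Tnk2, and the transcription factor genes Creb5 and Foxp1. At Foxp1 the q ranks were 85.1% and 85.4% in WT versus 74.8% and 75.8% in Sphk2 KO.

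Among lists of signal-induced genes, the members with a broad region ran from 0 of 12 for the type I interferon response to 3 of 11 for the NF-kB pathway. Counts this small do not tell the lists apart. Ends of 242 protein-coding genes lay within 1 kb of the 204 summits, which is 1.17% of 20661 autosomal protein-coding genes and 2.83% of the 8565 genes with any shared region at an end. The lists below were chosen with results of these data known, and counts are given without a test. Of 15 NF-kB pathway genes, 11 had a shared region at an end and 3 of these (27.3%) a broad one: Nfkbie, Birc3 and Nfkbid. Of 21 immediate early and AP-1 genes, 15 had a shared region and 3 (20%) a broad one: Ier2, Jun and Btg2. Of 21 feedback genes of signalling, 20 had a shared region and 4 (20%) a broad one: Dusp6 and Dusp7, phosphatases of ERK, the kinase gene Pim1 and the stress gene Gadd45a. The median width of the shared regions was 1279 bp for the NF-kB list, 1512 bp for the immediate early list and 1606 bp for the feedback list. It was 1053 bp over all 8565 genes and 1282 bp over the genes of any list. Of 291 genes of any list with a shared region, 26 (8.93%) had a broad one.

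Of 20 surface receptor and adhesion genes, 13 had a shared region and 3 (23.1%) a broad one: Cd44, the hyaluronan receptor, Cxcr4, the receptor that holds granulocytes in the marrow, and Tlr4, the receptor for lipopolysaccharide. Cd14, the partner of Tlr4, was the 1 broad gene of 7 monocyte markers with a shared region, and Il1r2, a decoy receptor for interleukin 1, the 1 of 11 granulocyte markers. Il1b was the 1 of 11 inflammatory mediators, a list whose shared regions had a median width of 1566 bp. Histone genes had 5 of 48 (10.4%), in 3 regions, at H2ac20 and H2ac21, at H2ac13 and H2bc13, and at H2ac18; near-identical histone copies could share reads, so these are uncertain.

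Several lists had no broad region; at the share of 2.83% over all genes, each would hold under 1 such gene. None of 15 myeloid transcription factor genes with a shared region had one, nor of 19 splicing and RNA-binding factor genes, 22 cytosolic ribosomal protein genes, 12 type I interferon response genes or 12 sphingolipid and sphingosine 1-phosphate genes, Sphk2 included, whose region was 1050 bp wide. The median width was 1273 bp for the myeloid transcription factors, 1439 bp for the splicing factors and 995.5 bp for the ribosomal proteins. At a minimum of 1500 bp, 6 myeloid transcription factor genes (40%) and 7 splicing factor genes (36.8%) had a region. So did 3 interferon response genes (25%), 2 sphingolipid genes (16.7%) and 1 ribosomal protein gene (4.55%), against 13.6% of all genes with a shared region. Of the lipid genes, Cpt1a, which imports fatty acids into mitochondria, and Lpcat2, which remodels phosphatidylcholine, were 2 of 13 with a shared region (15.4%). Ncor1 was 1 of 18 chromatin regulators, Ddit3 1 of 21 stress and chaperone genes and Gapdh 1 of 17 housekeeping genes. Macrophage markers (Adgre1, Cd68 and Maf), dendritic cell markers (Clec9a, Itgax and Xcr1), erythroid and megakaryocyte markers (Tal1), the 2 T cell markers and genes silent in blood (Mbp) had shared regions at the genes named and no broad one.

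**Figure D4:**
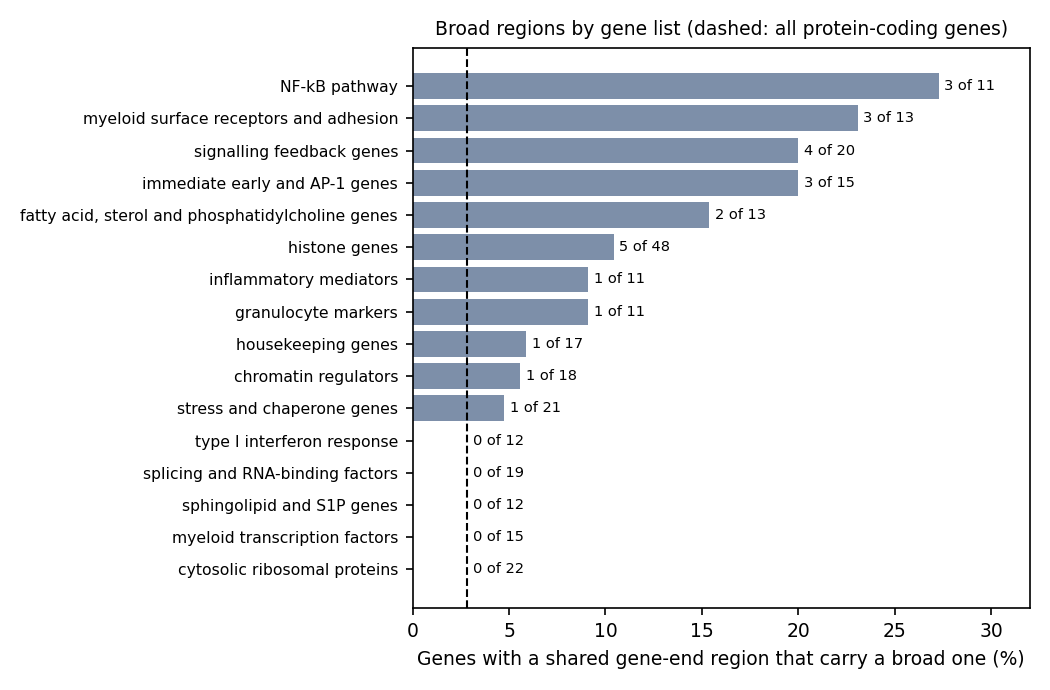
Share of the genes with a shared region at an end that carry a broad region (x axis, %), for each list with at least 10 such genes; the counts stand beside the bars and the dashed line is the share over all protein-coding genes, 2.83%. The NF-kB pathway list is highest at 3 of 11, and 5 lists are at 0.

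The families below were picked because several of their genes were seen among the members, so their counts show no more than which genes these were; the share over all genes with a shared region was 2.83%. Among 24 genes for subunits of the vacuolar proton pump, which acidifies lysosomes and phagosomes, 15 had a shared region and 4 a broad one: Atp6v0a1, Atp6v0d1, Atp6v1a and Tcirg1. At Atp6v0d1 the q ranks were 7.96% and 5.78% in WT versus 3.13% and 7.41% in Sphk2 KO, and at Tcirg1 68.8% and 57.4% in WT versus 68.1% and 81.1% in Sphk2 KO, so the family spanned strong and weak calls. Of the BTG and TOB proteins, which slow proliferation and recruit the deadenylase that shortens mRNA tails, 3 of 4 with a shared region had a broad one (Btg1, Btg2 and Tob2). Irf2, a repressor of interferon genes, and its binding protein genes Irf2bp2 and Irf2bpl made 3 of 4. Tnfrsf1a and Tnfrsf14 made 2 of 9 genes of the TNF receptor superfamily, Klf13 and Klf16 2 of 11 Krüppel-like factor genes, and Dgkd and Dgkg 2 of 5 diacylglycerol kinase genes.

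Genotypes did not separate over the broad regions as a set. The q rank was better in both WT libraries than in both Sphk2 KO libraries at 43 of 204 regions (21.1%), and 21.4% of all 16657 shared regions were. It was better in both Sphk2 KO libraries at 46 regions (22.5%), and 22.1% of all shared regions were. Both shares were near the background and so say nothing particular about broad regions. By fold enrichment rank the counts were 23 (11.3%) and 31 (15.2%), against 18.1% and 18.6%. The median q rank of the 204 regions differed by 0.577 percentage points between the genotypes and the median fold enrichment rank by 0.998, WT having the higher percent and thus the worse rank in both (two-sided exact permutation test, n = 2 libraries each, p = 1 and 1, and 1 after adjustment). These tests could not have gone under 0.333.

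The widest q rank gaps in favour of WT were at Schlafen genes, a family that restrains growth of immune cells. Slfn2, on chromosome 11 from 83063258 to 83065576, ranked at 33.1% and 32.8% in WT versus 51.5% and 55.2% in Sphk2 KO. Slfn1, 49324 bp further on, ranked at 48.9% and 62.5% in WT versus 66.4% and 80.7% in Sphk2 KO. At both genes the genotypes did not overlap, by a wide margin at Slfn2 and a narrow one at Slfn1. By fold enrichment Slfn2 ranked at 74.8% and 80% in WT versus 79.6% and 85.4% in Sphk2 KO, where the genotypes overlapped. Tent5a, a poly(A) polymerase gene, ranked at 32.4% and 37.3% in WT versus 49.4% and 45.4% in Sphk2 KO, and Man2a1, a Golgi mannosidase gene, at 25.6% and 33.3% in WT versus 44.7% and 36.7% in Sphk2 KO. By fold enrichment the genotypes overlapped at Slfn1, Tent5a and Man2a1 as well.

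Pilrb1 and Pilrb2, activating receptors of myeloid cells whose regions lie 11524 bp apart on chromosome 5, went in opposite directions. Pilrb1 ranked at 63% and 46.9% in WT versus 65.8% and 77.5% in Sphk2 KO, while Pilrb2 ranked at 69.6% and 66.5% in WT versus 55.7% and 60.3% in Sphk2 KO. By fold enrichment the genotypes overlapped at Pilrb1 and kept this order at Pilrb2. Their promoters are shown because the copies are near-identical: they shared 292 of 300 bases, an identity of 97.3%, and reads from one copy could have been placed on the other. Pilrb1 (chr5:137858000-137858299, minus strand) and Pilrb2 (chr5:137871709-137872008, minus strand) are printed 5′ to 3′ with motif matches in capitals, from the same table.
Pilrb1: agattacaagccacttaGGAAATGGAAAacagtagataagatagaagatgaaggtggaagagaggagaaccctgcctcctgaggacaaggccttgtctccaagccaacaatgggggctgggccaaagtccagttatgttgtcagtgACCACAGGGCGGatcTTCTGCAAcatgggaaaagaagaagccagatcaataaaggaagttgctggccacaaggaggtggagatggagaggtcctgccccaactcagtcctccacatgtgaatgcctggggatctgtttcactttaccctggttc
Pilrb2: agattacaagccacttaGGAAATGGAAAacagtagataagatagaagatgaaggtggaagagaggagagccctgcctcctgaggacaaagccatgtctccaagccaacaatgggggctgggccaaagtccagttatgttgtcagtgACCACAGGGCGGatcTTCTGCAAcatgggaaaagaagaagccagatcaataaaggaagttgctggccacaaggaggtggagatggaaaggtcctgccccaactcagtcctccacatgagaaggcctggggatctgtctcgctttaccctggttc
Both held the letters of the GC box, C/EBP, Runx and interferon response motifs at the same places, so these matches did not separate the copies.

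The widest gaps in favour of Sphk2 KO were at Gm38664, a predicted gene, Smc4, a condensin subunit gene, Rhoq, Acpp, an acid phosphatase gene, and Ier2. Smc4 ranked at 32.1% and 40.8% in WT versus 18.2% and 26.3% in Sphk2 KO. Ier2 ranked at 35.2% and 43% in WT versus 22.5% and 31.3% in Sphk2 KO. Its strongest summits lay up to 2422 bp apart between libraries, so these ranks rest on summits at different places in the region. Neither gene's genotypes overlapped in q rank. By fold enrichment Ier2 ranked at 84.6% and 91.6% in WT versus 68.5% and 84.9% in Sphk2 KO, where they overlapped, as they did at Acpp but not at Smc4, Rhoq or Gm38664. Gm38664 ranked at 42.2% and 45.2% in WT versus 29.7% and 27.1% in Sphk2 KO.

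**Figure D5:**
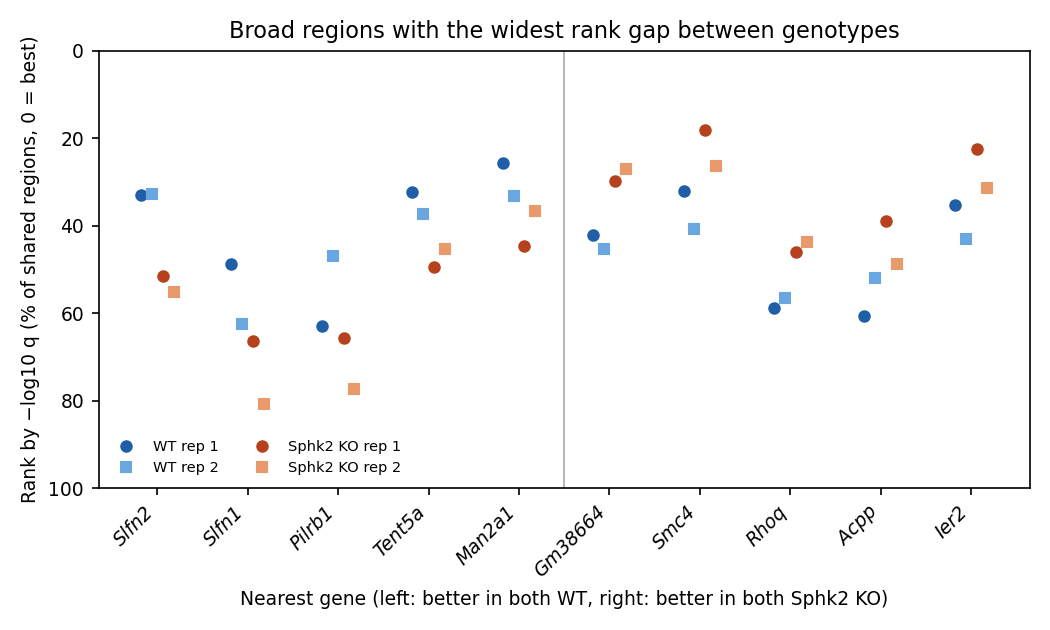
Rank by −log10 q (y axis, % of the 16657 shared regions, 0 best, axis reversed) of the 5 broad regions with the widest gap in each direction among those whose genotypes did not overlap, 1 point per library. Slfn2 stood at 33.1% and 32.8% in WT against 51.5% and 55.2% in Sphk2 KO, and Smc4 at 32.1% and 40.8% against 18.2% and 26.3%.

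Within the lists, the 3 broad NF-kB regions ranked better in both WT libraries, an order that 21.4% of all shared regions had. This was picked out after the values were seen. Birc3, an inhibitor of apoptosis and ubiquitin ligase of this pathway, ranked at 15.2% and 13.5% in WT versus 21.5% and 29% in Sphk2 KO. Nfkbid, which encodes a nuclear NF-kB inhibitor, ranked at 17.4% and 24.3% in WT versus 32.1% and 31.9% in Sphk2 KO. Nfkbie ranked at 28.6% and 43.8% in WT versus 43.9% and 46.4% in Sphk2 KO, where the gap between the nearest libraries was the smallest of the 3. By fold enrichment rank the genotypes overlapped at each of the 3; at Birc3 they stood at 48.8% and 49.9% in WT versus 44.9% and 62.3% in Sphk2 KO.

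The feedback genes did not share a direction. Dusp6 ranked at 22.3% and 33.7% in WT versus 33.8% and 44.2% in Sphk2 KO, and Dusp7 at 22.6% and 24.2% in WT versus 28.1% and 33.8% in Sphk2 KO. Pim1 ranked at 7.52% and 8.99% in WT versus 6.74% and 3.91% in Sphk2 KO, where Sphk2 KO stood better, and Gadd45a overlapped between the genotypes. Jun (11.9% and 9.70% in WT, 5.91% and 10.7% in Sphk2 KO) and Btg2 (9.87% and 7.70%, 11.5% and 8.31%) overlapped as well. By fold enrichment the genotypes overlapped at Dusp6, Dusp7 and Pim1.

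Among the effector and lipid genes, Il1b ranked at 46.1% and 56.3% in WT versus 40% and 44.4% in Sphk2 KO, and Cpt1a at 57.4% and 57.4% in WT versus 48% and 48.1% in Sphk2 KO. Neither gene's genotypes overlapped, and at Cpt1a the replicates of each genotype were close. By fold enrichment Il1b ranked at 93.1% and 97.1% in WT versus 93.9% and 96.6% in Sphk2 KO, where the genotypes overlapped. By fold enrichment Cpt1a ranked at 87.2% and 88.9% in WT versus 76.6% and 86% in Sphk2 KO, with the same order. Lpcat2 ranked at 39.5% and 30.7% in WT versus 32.2% and 36.9% in Sphk2 KO, Tlr4 at 35.4% and 32.9% in WT versus 25.8% and 36.6% in Sphk2 KO, and Cd14 at 24.4% and 20.9% in WT versus 14% and 22.6% in Sphk2 KO, all with overlap. Ncor1, a corepressor gene, ranked at 13.9% and 17.2% in WT versus 23.6% and 21.4% in Sphk2 KO and did not overlap, nor did its fold enrichment ranks, which were better in WT.

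The regions were spread over all 19 autosomes. Chromosome 11 held the most, 20, or 2.99% of its 668 shared gene-end regions, and the share over chromosomes ran from 1.36% on chromosome 13 (4 regions) to 4.19% on chromosome 3 (15 regions). Chromosome 7, which carries Sphk2, held 12 (2.06%). Pairs less than 100 kb apart included Slfn2 and Slfn1, Pilrb1 and Pilrb2, and the histone regions at H2ac21 and H2ac18.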

How the data were processed

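The members and gene lists were chosen with earlier results of these data known. The submitters' processing notes list cutadapt, BWA, MACS2 and the build mm10; the sources used here do not give whether reads were shifted for Tn5. Each library had its own peak call, by MACS 2.1.1.20160309 in paired-end mode with no control sample and a q-value limit of 0.05, per the file headers. The deposited lists give the authors' pileup (a coverage signal), the −log10 of p-value and q-value, and fold enrichment, a ratio to local background. These are each peak's own scores, used only to describe and rank regions within a library. Fragments per library ranged from 25877428 to 34443062, which limits how alike their peak calls can be.

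Regions were merged and ranked in Python 3.11.15 with pandas 2.3.3 and numpy 2.4.6, and the merging was tested on simulated peak lists. A region took its best peak's score in each library, and tied ranks were averaged. A region was named by the nearest protein-coding gene end (RefSeq, GRCm38.p6, 21883 genes); 170 of the 204 nearest genes matched the promoter table. The 2 Pilrb promoters were aligned with Biopython 1.88. The genes named were the 12 widest, the 8 best and 6 worst by q rank, the 5 with the widest gap in each direction, the 3 nearest the width threshold on each side, those with the most gene ends, and up to 4 per list. The Fcgr4, Pilrb1 and Pilrb2 promoters, the recurring families, the pileup ranks, the local background and the counts of regions by covered width were added after the values were seen. Alternatives were other widths and gene distances, stricter peaks, lists of equal length, other merging and summits, and each library left out.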

Additional observations from a re-analysis of the deposited data

How the results depend on the processing

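The number of regions followed the width rule: 204 became 978 at a minimum of 1500 bp, 11 at 3000 bp and 43 when every library had to cover 2000 bp. Of the 204, 196 were found again with a −log10 q of at least 5 and 196 with the 20759 top peaks of every library. Without each library in turn the number ran from 172 to 201. Regions better ranked in both WT libraries numbered 191, 3 and 8 under the same 3 width rules, and those better ranked in both Sphk2 KO libraries 223, 3 and 14. Ranking by fold enrichment gave 23 for WT. With each library left out these counts ran from 57 to 67 and from 64 to 75, since 1 library then stands for its group.

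The differences between genotypes had no stable sign. The covered width difference was -182.5 bp at 3000 bp, and ran from -25 to 184 bp without each library. The q rank difference ran from -0.471 to 3.10 percentage points and that of fold enrichment from -2.57 to 4.67. Both turned negative without WT replicate 2 (-0.471 and -2.13) and without Sphk2 KO replicate 1 (-0.232 and -2.57), which also turned the covered width; the cause was not tested. Against each library's full list, whose lengths differ, the q rank difference was -5.57. The correlation of deviations by replicate number was -0.0284, which showed no pairing of libraries but cannot exclude it with 2 replicates. In each genotype replicate 1 had the lower median covered width and the lower percent of fold enrichment rank, while pileup rank had no common order. With replicate number as a block the differences were 0.577, 0.998 and 104 bp (exact sign-flip p = 1, 1 and 0.5, the smallest possible being 0.5). Read counts per region were not used here, so a rank rests on 1 peak score.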
